A study of Arabidopsis with 4 samples.

Results

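The 33 genes described here encode enzymes of the Calvin cycle and of photorespiration in Arabidopsis, and were chosen by their gene codes out of the 32833 genes of the deposited table. They comprise 19 Calvin cycle genes (the 4 nuclear Rubisco small-subunit genes, Rubisco activase, 12 genes of plastid enzymes and 2 genes of the regulator CP12) and 14 photorespiration genes, counting the catalase CAT2. RNA sequencing gave their transcript levels in whole seedlings of 2 genotypes: Col-0, the usual laboratory wild type (n = 2 libraries), and jmj28-2 in the Col-0 ecotype (n = 2 libraries), a mutant of JMJ28, which belongs to a group of JmjC histone demethylases. Both genotypes were sampled at 12 days, after growth at 23 °C in daily cycles of 16 h light and 8 h dark, on a medium that held 1% sucrose. The comparison asks which transcripts differ between the genotypes, and the position of the mutation within JMJ28 is not stated in the labels.

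In the Calvin cycle, Rubisco fixes carbon dioxide in the chloroplast, a pair of reduction steps turns the product into triose phosphate, and a series of rearrangements regenerates the acceptor for the next round. Rubisco also reacts with oxygen, which yields phosphoglycolate. Photorespiration salvages that by-product through the peroxisome, where glycolate is oxidized and hydrogen peroxide is broken down by catalase, through the mitochondrion, where glycine is converted to serine, and back to the chloroplast. In green tissue the nuclear genes of both pathways are among the most highly expressed.

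Values are in TPM, transcript abundances scaled by length and to one total shared by all libraries, so levels can be compared between genes. Each library held 19606 to 19751 genes at 1 TPM or more. The 19764 genes with a mean of at least 1 TPM were tested with limma, which called 8 genes higher and 7 lower in jmj28-2 at a Benjamini-Hochberg adjusted p under 0.05, or 0.0405% and 0.0354% of those tested. These 15 calls became 0 when Col-0 replicate 2 was left out and 5 when jmj28-2 replicate 1 was. JMJ28 itself (AT4G21430) stood at 7.63 and 7.70 TPM in Col-0, against 5.45 and 5.72 TPM in jmj28-2, a difference in the direction of the labels that did not pass (limma adjusted p = 0.235). Markers of both shoot and root were present, as a whole seedling should show: the 17 light-harvesting genes summed to between 94549 and 107612 TPM, and the 25 root markers to between 1968 and 2505 TPM. Without PYK10, named after its values were seen, the root markers summed to between 265 and 427 TPM. The library jmj28-2 replicate 2 stood apart in its root markers, whose median lay at -0.45 relative to the Col-0 mean on the log2 scale, against 0.016 in jmj28-2 replicate 1. Depth per library is unknown, since TPM keep no record of it. An error after ± is the standard deviation of the n = 2 libraries of a genotype, and SE is the standard error of a fitted log2 change.

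All 33 genes were tested, and 0 were called in either direction. The smallest adjusted p among them was 0.219 (limma), and 15 had an unadjusted p under 0.05, all of them lower in jmj28-2, where 4.36% of all genes tested were lower and 9.5% higher at that threshold. That count of 15 was 8 with quantile normalization and 7 with no trend in the prior. It was 17 with each library rescaled to the median of the genes outside the 33, and 19 with a rescaling without photosynthesis genes. Over all genes tested, 2739 were under that threshold in either direction as reported, and 2786, 2493, 2732 and 2714 in those settings, in that order. The mean was lower in jmj28-2 for 29 of the 33 genes, against 42.4% of all genes tested, and the median log2 change was -0.14, against 0.03 over all genes tested. For 26 of the 33 genes both mutant libraries stood under both wild-type libraries, an arrangement found for 17.6% of all genes tested. The opposite arrangement, with both mutant libraries on top, was found for 0 of the 33 and for 29% of all genes tested. In 21 of the 26 the gap between the lower Col-0 library and the higher jmj28-2 library was wider than the larger of the differences between libraries of one genotype, which held for 5.8% of all genes tested. The differences were small, from -22.7% for CAT2 to 6.12% for PGLP1A relative to the Col-0 mean. In whole seedlings, fewer green cells and less transcript per green cell cannot be told apart.

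**Figure D1:**
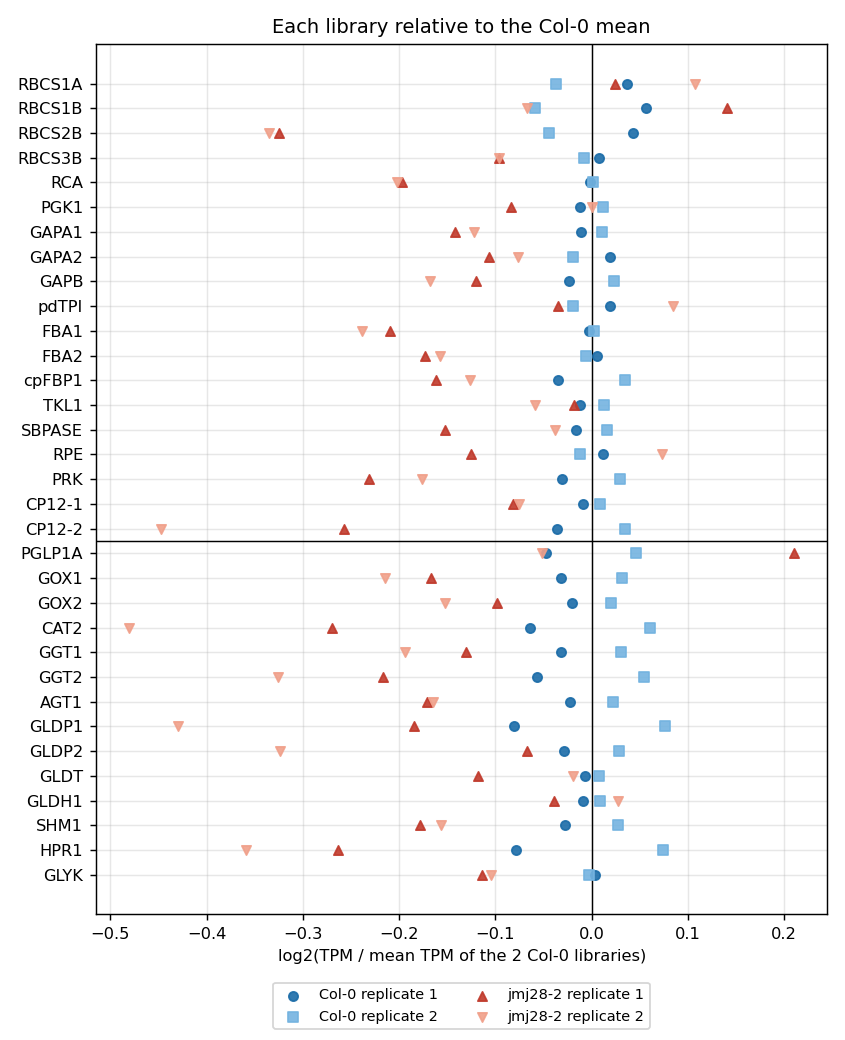
The log2 ratio of each library to the mean of the 2 Col-0 libraries (x axis) for each Calvin cycle gene (above the line) and photorespiration gene (below it), with 1 point per library. Both jmj28-2 points lie left of both Col-0 points for 26 of the 33 genes, and the points of jmj28-2 replicate 2 lie farthest left for CAT2, CP12-2 and GLDP1.

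The 33 genes took 82207 and 81122 TPM in the Col-0 libraries and 76131 and 76567 TPM in the jmj28-2 libraries, or 8.17% ± 0.0767 and 7.64% ± 0.0305 of each library. The summed level differed by -6.51% in jmj28-2, with no overlap between the genotypes. Within it, the Calvin cycle genes summed to 70755 ± 1147 TPM in the wild type and 66746 ± 554 TPM in the mutant. The photorespiration genes summed to 10910 ± 380 and 9603 ± 245 TPM, a difference of -12.0%. Rubisco small-subunit genes made up most of the Calvin cycle sum; without them it stood at 23019 ± 146 and 20715 ± 109 TPM, a difference of -10.0%. The ratio of that remainder to the photorespiration sum overlapped between the genotypes, with means of 2.11 ± 0.0601 in Col-0 and 2.16 ± 0.0665 in jmj28-2.

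Levels spanned a wide range, from a mean over the 4 libraries of 68.8 TPM for GGT2 to 18940 TPM for RBCS1A. Across the 33 genes, which share the same 4 libraries, the log2 change showed almost no relation to the level (Pearson's r = 0.031, Spearman's rho = -0.035). Level still matters to the background. Among the 79 other genes at a mean of 1000 TPM or more, a threshold chosen after the values were seen, 64 had a lower mean in jmj28-2 and 44 had both jmj28-2 libraries below both Col-0 libraries (55.7%), with a median log2 change of -0.10. The 16 Calvin cycle and photorespiration genes above that level had a median of -0.15, with 13 of 16 without overlap and lower. The gap was wider than the larger difference within a genotype in 13 of the 16 and in 14 of the 79. Below it, 13 of the 17 remaining genes of the 2 pathways were lower without overlap (median -0.13), against 20.2% of the 2043 other genes between the lowest of the 33 and 1000 TPM (median 0.05). Whether the difference in level accounts for part of the difference from the background was not tested.

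**Figure D2:**
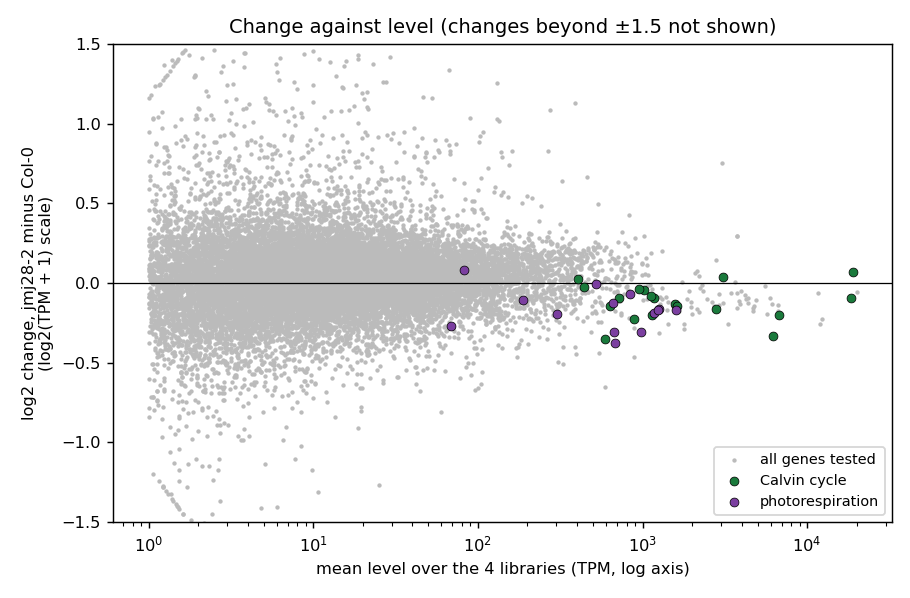
The log2 change between genotypes (y axis, jmj28-2 minus Col-0, on the log2(TPM + 1) scale) against the mean level over the 4 libraries (x axis, TPM, log axis), with 1 point per gene tested and the Calvin cycle and photorespiration genes in colour. Of the coloured points, 29 of 33 lie below 0, and most other genes above 1000 TPM also lie below 0.

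Rubisco itself is built from a plastid-encoded large subunit and small subunits from 4 nuclear genes. RBCS3B, RBCS2B and RBCS1B (AT5G38410, AT5G38420 and AT5G38430) lie in one cluster on chromosome 5, RBCS2B next to RBCS1B in RefSeq order, while RBCS1A (AT1G67090) lies on chromosome 1. RBCS1A had 18977 and 18030 TPM in Col-0, against 18813 and 19939 TPM in jmj28-2, so the genotypes overlapped. In RBCS3B the values were 19338 and 19126 TPM against 17996 and 17986 TPM, lower in both mutant libraries (log2 change -0.10, SE 0.0738, limma adjusted p = 0.609). RBCS2B, with 7170 and 6746 TPM in Col-0, against 5554 and 5517 TPM in jmj28-2, showed the widest difference of the 4. Its mean differed by -20.4% in jmj28-2 (log2 change -0.33, SE 0.0687), and its limma adjusted p of 0.219 was the smallest of the 33 genes. With quantile normalization its change was -0.18 (limma adjusted p = 0.379), and GGT2 then had the smallest adjusted p (0.217). RBCS1B overlapped, at 3165 and 2920 TPM in Col-0, against 3355 and 2904 TPM in jmj28-2.

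The 4 small-subunit genes summed to 47736 ± 1292 TPM in the wild type and 46032 ± 444 TPM in the mutant, a difference of -3.57%. Fitted as 1 enzyme, the sum had a log2 change of -0.05 (SE 0.0949, limma adjusted p = 0.847). RBCS2B made up 14.7% and 14.4% of that sum in Col-0 and 12.1% and 11.9% in jmj28-2, and RBCS1A 39.0% and 38.5% against 41.2% and 43.0%. Neither share overlapped between genotypes, while that of RBCS1B did. The 4 coding sequences are known to be alike, and how reads that match several copies were counted is not stated, so the split among them is uncertain.

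**Figure D3:**
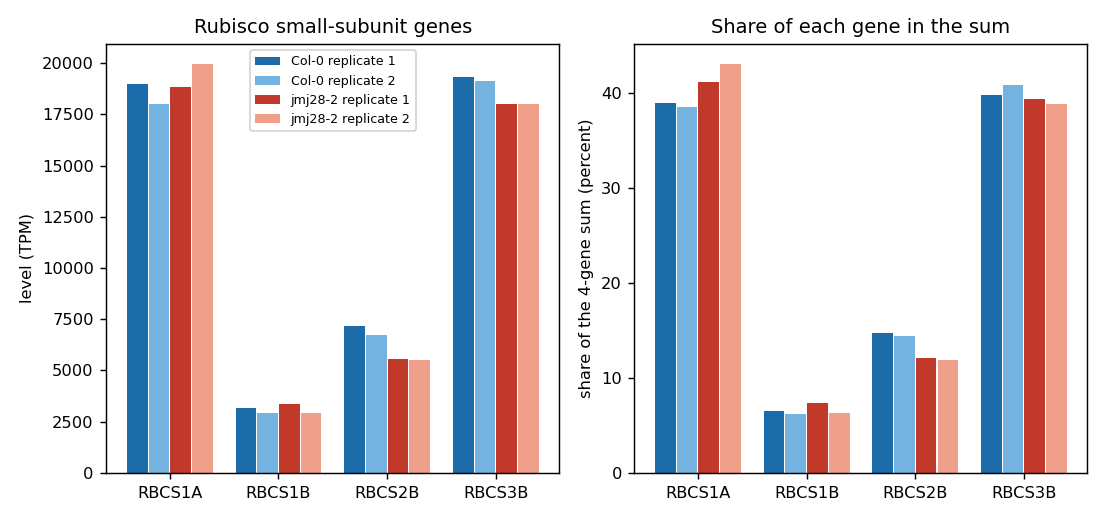
The level of each Rubisco small-subunit gene (left, TPM) and its share of the sum over the 4 genes (right, percent), with 1 bar per library. The RBCS2B bars of jmj28-2 (5554 and 5517 TPM) stand below those of Col-0 (7170 and 6746 TPM), while the bars of RBCS1A overlap in level.

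Rubisco activase, encoded by RCA (AT2G39730), frees the active site of Rubisco from bound sugar phosphates. RCA had 7250 and 7268 TPM in Col-0, against 6333 and 6310 TPM in jmj28-2. The libraries of one genotype thus differed by at most 23.3 TPM while the gap between genotypes was 917 TPM (log2 change -0.20, SE 0.0638, limma adjusted p = 0.293). With quantile normalization the change of RCA was -0.0295 (limma adjusted p = 0.821). Relative to the small-subunit sum, RCA stood at 14.9% and 15.5% in Col-0 and 13.9% and 13.6% in jmj28-2.

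Carbon reduction begins with phosphoglycerate kinase, PGK1 (AT3G12780), which overlapped at 1029 and 1047 TPM in Col-0, against 979 and 1038 TPM in jmj28-2. The plastid glyceraldehyde-phosphate dehydrogenase that follows is built from A and B subunits. GAPA1 (AT3G26650) had 1627 and 1651 TPM in Col-0, against 1485 and 1506 TPM in jmj28-2. GAPB (AT1G42970) had 1674 and 1729 against 1565 and 1514 TPM. GAPA2 (AT1G12900) had 1234 and 1201 against 1130 and 1154 TPM. All 3 dehydrogenase genes were lower in both mutant libraries, with log2 changes between -0.14 and -0.09 and adjusted p between 0.367 and 0.521 (limma), although quantile normalization turned the changes of GAPA1 and GAPB to 0.00219 and 0.0375. The balance of A to B subunit transcripts overlapped, at 1.71 and 1.65 in Col-0 and 1.67 and 1.76 in jmj28-2.

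Among the 8 regeneration genes, 7 had a lower mean in jmj28-2, against 42.4% of all genes tested, and 6 were lower without overlap, against 17.6%. FBA1 (AT2G21330) and FBA2 (AT4G38970) encode plastid aldolases, which join triose phosphates. FBA1 had 955 and 958 TPM in Col-0, against 827 and 811 TPM in jmj28-2 (log2 change -0.22, SE 0.0522, limma adjusted p = 0.232). FBA2, the more abundant of the pair, had 2966 and 2943 against 2620 and 2648 TPM. Their sum was 3911 ± 13.8 TPM in the wild type and 3453 ± 7.69 TPM in the mutant, a difference of -11.7%. PRK (AT1G32060), phosphoribulokinase, which makes the carbon dioxide acceptor, had 1191 and 1242 TPM in Col-0, against 1036 and 1076 TPM in jmj28-2 (log2 change -0.20, SE 0.0580, limma adjusted p = 0.266). The plastid fructose bisphosphatase gene cpFBP1 (AT3G54050) had 653 and 685 against 598 and 613 TPM.

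Other regeneration genes differed by less. SBPASE (AT3G55800), for the bisphosphatase that acts on the sugar sedoheptulose, had 732 and 748 TPM in Col-0, against 666 and 721 TPM in jmj28-2, without overlap but with the mutant libraries farther apart than the genotypes. The transketolase gene TKL1 (AT3G60750) had 959 and 976 against 955 and 929 TPM, a gap between genotypes of 4.04 TPM. In RPE (AT5G61410), for ribulose-phosphate epimerase, the values were 446 and 439 TPM in Col-0, against 405 and 465 TPM in jmj28-2, and the mutant libraries enclosed the Col-0 libraries. The same held for pdTPI (AT2G21170), the plastid triose-phosphate isomerase gene, at 405 and 394 against 390 and 424 TPM.

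CP12 is a small protein that binds the dehydrogenase and phosphoribulokinase into an inactive complex in the dark. CP12-2 (AT3G62410) had 648 and 680 TPM in Col-0, against 556 and 487 TPM in jmj28-2, lower in both mutant libraries (-21.5%, log2 change -0.35, SE 0.0805, limma adjusted p = 0.231). CP12-1 (AT2G47400) had 1147 and 1162 against 1090 and 1095 TPM, a smaller difference (-5.32%, limma adjusted p = 0.559). CP12-2 made up 36.1% and 36.9% of the CP12 transcripts in Col-0 and 33.8% and 30.8% in jmj28-2.

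Photorespiration starts in the chloroplast with phosphoglycolate phosphatase. PGLP1A (AT5G36700) had 77.0 and 82.2 TPM in Col-0, against 92.2 and 76.9 TPM in jmj28-2, which overlapped. The table gives the same name to AT5G36790, here PGLP1B, a near-identical copy on chromosome 5 that was not among the 33 genes. PGLP1B had 286 and 301 TPM in Col-0, against 257 and 272 TPM in jmj28-2. Summed over both copies, the level was 373 ± 14.4 TPM in the wild type and 349 ± 0.403 TPM in the mutant, a difference of -6.46% without overlap, so the higher mean of PGLP1A did not carry over to the pair.

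All 7 genes of peroxisomal enzymes were lower in both mutant libraries, in each case by more than the libraries of a genotype differed, and 6 of them had an unadjusted p under 0.05. Over all genes tested these shares were 17.6%, 5.8% and 4.36%. None of the 7 was called, and their median log2 change was -0.19. CAT2 (AT4G35090), the catalase that removes photorespiratory hydrogen peroxide in leaves, had 732 and 798 TPM in Col-0, against 635 and 548 TPM in jmj28-2. This was the largest relative difference of the 33 genes (-22.7%, log2 change -0.37, SE 0.0913, limma adjusted p = 0.235). HPR1 (AT1G68010), hydroxypyruvate reductase, had 705 and 784 TPM in Col-0, against 620 and 580 TPM in jmj28-2 (log2 change -0.31, SE 0.0753, limma adjusted p = 0.235).

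The glycolate oxidase genes GOX1 (AT3G14420) and GOX2 (AT3G14415) are adjacent in RefSeq order on chromosome 3. GOX1 had 1223 and 1278 TPM in Col-0, against 1114 and 1077 TPM in jmj28-2. GOX2 had 677 and 696 against 641 and 618 TPM. Both were lower in the mutant, and their sum differed by -10.9% (log2 change -0.17, SE 0.0599, limma adjusted p = 0.331). The glyoxylate produced by these oxidases is converted to glycine by aminotransferases. GGT1 (AT1G23310) had 1309 and 1366 TPM in Col-0, against 1222 and 1169 TPM in jmj28-2. GGT2 (AT1G70580), the least abundant of the 33 genes, had 72.3 and 78.1 against 64.7 and 60.0 TPM (log2 change -0.27, SE 0.0719, limma adjusted p = 0.256). AGT1 (AT2G13360), which uses serine as the amino donor, had 1292 and 1332 TPM in Col-0, against 1165 and 1170 TPM in jmj28-2. Each of the 3 aminotransferase genes was lower in both mutant libraries, with changes of -0.0753 for GGT1 and -0.0316 for AGT1 under quantile normalization, against -0.16 and -0.17 as reported.

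In the mitochondrion, glycine decarboxylase and serine hydroxymethyltransferase together turn glycine into serine. SHM1 (AT4G37930), the hydroxymethyltransferase gene, had 1652 and 1717 TPM in Col-0, against 1488 and 1512 TPM in jmj28-2 (log2 change -0.17, SE 0.0569, limma adjusted p = 0.312), a change that quantile normalization reduced to -0.0239 (adjusted p = 0.830). GLDP1 (AT4G33010), for the P protein that decarboxylates glycine, had 1019 and 1135 against 948 and 800 TPM, a difference of -18.9% but with libraries of one genotype up to 148 TPM apart. Its log2 change of -0.30 became -0.18 without jmj28-2 replicate 2. GLDP2 (AT2G26080), the second P protein gene, had 314 and 327 against 306 and 256 TPM.

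The partners of the P protein differed less. GLDT (AT1G11860), for the T protein, had 854 and 862 TPM in Col-0, against 791 and 847 TPM in jmj28-2. GLDH1 (AT2G35370), for the lipoate-bearing H protein, had 521 and 527 against 510 and 534 TPM, which overlapped. Across the complex, the ratio of summed P to summed H protein transcripts was 0.995 and 1.09 in Col-0 and 0.959 and 0.777 in jmj28-2. The cycle closes in the chloroplast with glycerate kinase, GLYK (AT1G80380), at 195 and 194 TPM in Col-0, against 180 and 181 TPM in jmj28-2, lower in both mutant libraries by a small and regular margin (-7.30%, limma adjusted p = 0.415).

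**Figure D4:**
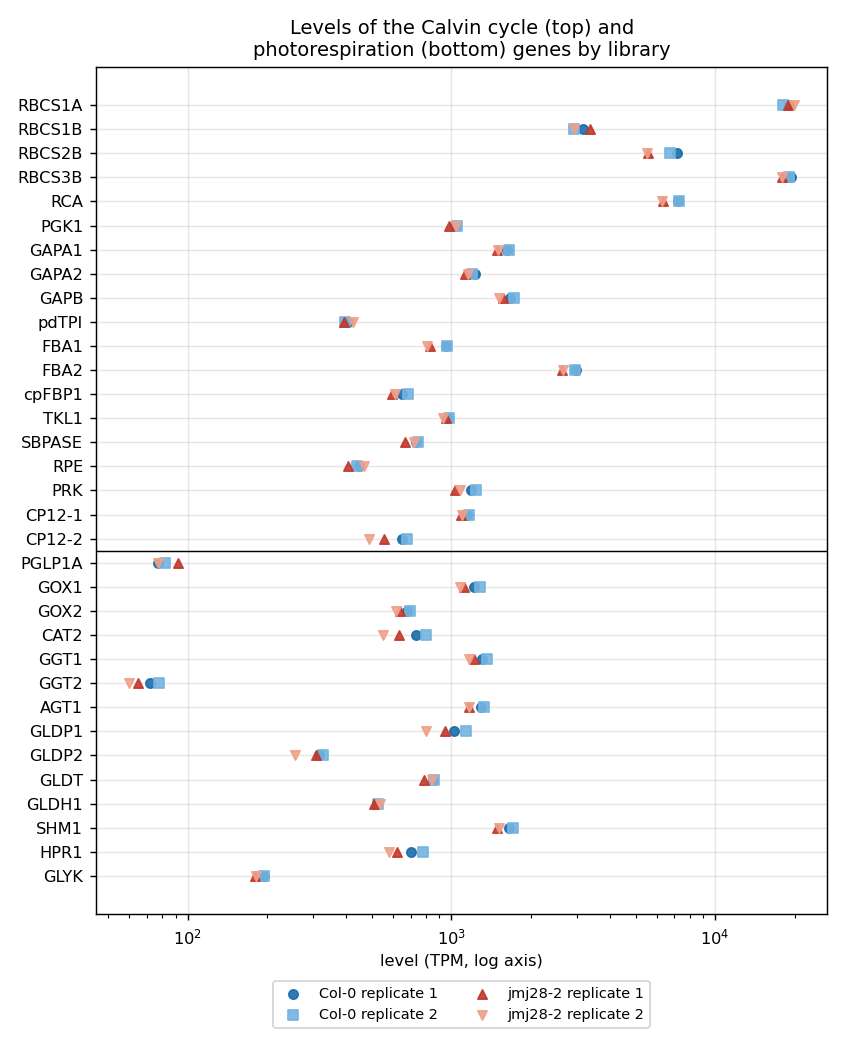
The level (x axis, TPM, log axis) of each Calvin cycle gene (above the line) and photorespiration gene (below it), with 1 point per library. RBCS1A and RBCS3B stand highest, with 17986 TPM or more in each library, PGLP1A and GGT2 lowest, under 100 TPM, and the spread between libraries is small beside the spread between genes.

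The 2 mutant libraries did not deviate equally in every gene. CP12-2, CAT2, GLDP1, GLDP2 and HPR1 were lower in jmj28-2 replicate 2 than in replicate 1, while RPE, pdTPI and GLDT were higher there. Replicate 2 was the lower of the pair for 17 of the 33 genes, and for 12423 of all 19764 genes tested. The medians over all 33 genes were close, at -0.13 and -0.15. Light-harvesting genes, which encode the antenna proteins of the photosystems, were also low in the mutant. Of the 17, 16 had a lower mean, against 42.4% of all genes tested, and 11 (64.7%) were lower without overlap, against 17.6%. Their median log2 change was -0.11, and their sum differed by -7.73% without overlap. Other abundant genes were often lower too. For the 62 genes at a mean of 1000 TPM or more that were neither among the 33 nor light-harvesting, these shares were 77.4% and 53.2%. Fewer were lower by a gap wider than the larger difference within a genotype: 10 of the 62 and 4 of the 17 light-harvesting genes. Of the 33, 13 of the 16 at that level were. The 2 mutant libraries differed by a median of 0.13 on the log2 scale in the 62 and 0.03 in the 16. Replicate 2 was the lower mutant library for 19 of those 62. In the light-harvesting genes the 2 mutant libraries were unequal, with 16 of 17 genes lower in replicate 1 than in replicate 2 and medians of -0.18 and -0.04. Root markers had the opposite order of the 2 mutant libraries, with 22 of 25 lower in replicate 2. Between genotypes they were low in the mutant too. Of the 25, 19 had a lower mean in jmj28-2 (76%, against 42.4%) and 6 were lower without overlap (24%, against 17.6%). Their median log2 change was -0.22, and 0.0117 without replicate 2. No gene of either list was called. The share of the difference in the 33 genes that goes with tissue makeup was not tested; the count of the 33 lower without overlap was 30 without replicate 2, where 25.4% of all genes were, and 28 without replicate 1, where 38.3% were. Those shares are above the 17.6% seen with all libraries.

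**Figure D5:**
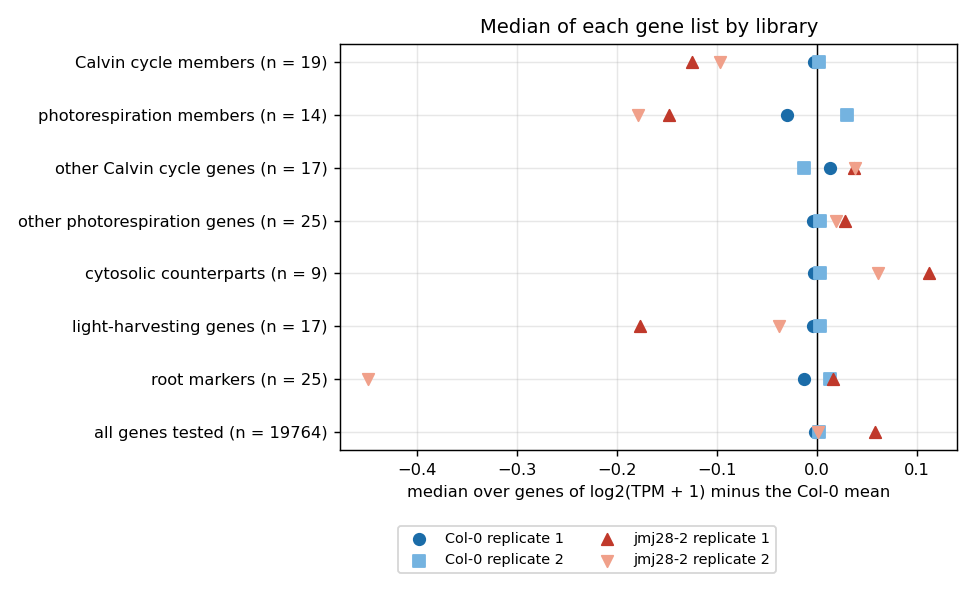
The median over each gene list of log2(TPM + 1) minus the Col-0 mean (x axis), with 1 point per library. Both jmj28-2 points lie left of both Col-0 points for the Calvin cycle, photorespiration and light-harvesting genes. The light-harvesting genes are lowest in replicate 1 (-0.18, against -0.04 in replicate 2), and the root markers are low in replicate 2 (-0.45).

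Other genes of the 2 pathways were taken from a list of 42 that covers minor isoforms, assembly factors, transporters and nitrogen recycling. They lay near the background in direction, overlap and median log2 change. Of the 42, all tested, 0 were called, 19 had a lower mean in jmj28-2, 9 (21.4%) were lower and 15 (35.7%) higher without overlap, against 17.6% and 29% of all genes tested, and the median log2 change was 0.02, against 0.03. At an unadjusted p under 0.05 (limma), 7 were lower and 3 higher, against 4.36% and 9.5% of all genes tested. By pathway, 2 were lower and 3 higher of the 17 Calvin cycle genes, and 5 and 0 of the 25 photorespiration genes. In 7 of the 42, jmj28-2 was lower by a gap wider than the larger difference within a genotype, against 5.8%. Unlike the 33 genes, most of the 42 stood below 300 TPM. PMDH2, the peroxisomal malate dehydrogenase that supplies reductant to hydroxypyruvate reductase, had 951 and 1008 TPM in Col-0, against 821 and 792 TPM in jmj28-2 (log2 change -0.28, SE 0.0597, limma adjusted p = 0.224). GLU1, the ferredoxin-dependent glutamate synthase that recaptures photorespiratory ammonia, had 476 and 513 against 431 and 421 TPM. GS2, the plastid glutamine synthetase of the same step, named after its values were seen, overlapped at 1300 and 1349 against 1303 and 1293 TPM. The glycolate carriers BASS6 and, named after its values were seen, PLGG1 were lower in both mutant libraries, at 9.23 and 9.20 against 6.60 and 7.27 TPM and at 205 and 210 against 192 and 190 TPM. GOX3, a minor glycolate oxidase, had 14.1 and 16.7 against 12.5 and 11.6 TPM.

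Around Rubisco, the assembly chaperone RBCX2 had 88.3 and 92.8 TPM in Col-0, against 77.8 and 79.4 TPM in jmj28-2. CBBY, a phosphatase that destroys an inhibitory by-product of Rubisco, had 166 and 170 against 150 and 154 TPM. Plastid chaperonins fold the large subunit among other proteins. For 4 of their genes, a group put together after their values were seen, both mutant libraries were above both Col-0 libraries, an arrangement found for 29% of all genes tested, and none was called. CPN60A1 had 258 and 238 TPM in Col-0, against 288 and 308 TPM in jmj28-2 (log2 change 0.26, SE 0.0675, limma adjusted p = 0.244), and CPN60B2 had 102 and 89.3 against 111 and 117 TPM. CPN60B1 and CPN20, named after their values were seen, stood at 335 and 314 against 343 and 376 TPM and at 574 and 532 against 607 and 688 TPM.

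Like CAT2, the other catalase genes did not pass the test, but their means were higher in jmj28-2. CAT3 (AT1G20620), named after its values were seen, had 833 and 775 TPM in Col-0, against 833 and 1148 TPM in jmj28-2, and CAT1 (AT1G20630), also named afterwards, 30.1 and 25.8 against 31.3 and 37.2 TPM (limma adjusted p = 0.487 and 0.380). For CAT3, replicate 1 of the mutant was level with the higher Col-0 library, while replicate 2 stood well above it. The ratio of CAT2 to CAT3 was 0.878 and 1.03 in Col-0 and 0.762 and 0.478 in jmj28-2, while the sum over the 3 catalase genes overlapped, at 1595 and 1599 against 1499 and 1733 TPM. The low ratio in replicate 2 came with the low root markers of that library, and their part in it was not tested.

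Enzymes that catalyse the like reactions outside the plastid formed a further comparison. Of 9 such genes, 6 had a higher mean in jmj28-2, 5 were higher without overlap (29% of all genes tested) and 2 were lower without overlap (17.6%). The median log2 change was 0.07, and 0 were called. The lower pair, named after their values were seen, were the cytosolic fructose bisphosphatase gene cyFBP, with 307 and 315 against 275 and 294 TPM, and RPE_cyt1 (AT1G63290), with 36.3 and 37.9 against 34.7 and 34.9 TPM. GAPC1 had 668 and 633 TPM in Col-0, against 743 and 694 TPM in jmj28-2, and GAPC2 had 953 and 945 against 1057 and 1012 TPM. The cytosolic triose-phosphate isomerase gene cTPI had 517 and 520 against 569 and 569 TPM (limma adjusted p = 0.345), and the aldolase gene FBA6 79.7 and 80.0 against 86.4 and 90.4 TPM. A ratio cancels a single scaling factor per library, but not a normalization that depends on level. The ratio of plastid to cytosolic glyceraldehyde-phosphate dehydrogenase transcripts stood at 2.80 and 2.90 in Col-0 and 2.32 and 2.45 in jmj28-2 (-16.3%). It was not computed with quantile normalization, where the log2 changes of GAPA1 and GAPB were 0.00219 and 0.0375. For aldolase, the ratio of FBA1 and FBA2 to FBA6 and FBA8 was 9.24 and 9.42 against 7.64 and 7.94 (-16.5%). Other ratios differed less. For triose-phosphate isomerase, pdTPI to cTPI stood at 0.783 and 0.758 against 0.687 and 0.745 (-7.10%). For phosphoglycerate kinase, PGK1 to PGK3 overlapped, at 4.45 and 4.71 against 3.92 and 4.59 (-7.06%), as did the fructose bisphosphatase ratio, at 2.13 and 2.18 against 2.18 and 2.08. With 2 libraries per genotype an exact permutation test of such a ratio cannot give a two-sided p under 0.3333, so none is given.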

How the data were processed

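The build TAIR10 and the tools TopHat, RSEM and edgeR are listed, without roles or versions, per the submitters' processing notes; filters and strand are not given there. The authors deposited 1 table, labelled as FPKM, with 2 decimals. Its 4 columns sum to between 998943 and 999014, as TPM do and FPKM do not, and the deposited numbers were therefore read as TPM and given the test planned for FPKM. A fixed total means that abundant transcripts move all others. Columns were matched to libraries by name, with 0 left unmatched. Genes with a mean of at least 1 TPM were transformed as log2(TPM + 1) and analysed with limma 3.58.1 under R 4.3.3, in a model of genotype alone with a trended prior (2 residual and 3.18 prior degrees of freedom), two-sided, with Benjamini-Hochberg adjustment over the 19764 genes. The labels do not say that libraries came from separate cultures, so p-values reflect only how much these libraries vary, and that variation may be technical. The procedure was tested on simulated data. Copies that share reads, and overlapping or antisense genes, are uncertain.

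The 33 genes and the other lists were chosen with earlier results of these data known. The genes named are all 33, JMJ28 and, from each other list, any called gene or else up to 4 with the smallest p; of the light-harvesting genes and root markers only summaries are given. Any other gene is marked in the text as named after its values were seen, except PGLP1B, GLDH2, GLDH3, FBA8 and PGK3, which enter as parts of a sum or ratio. Isoforms, their names and roles follow common usage; all 33 codes matched a RefSeq gene table on TAIR10.1, used only for names and neighbours. Figures were drawn with matplotlib 3.10.9.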

Additional observations from a re-analysis of the deposited data

How the results depend on the processing

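0 of the 33 genes were called in either direction under any of the 14 other settings in which all 33 were fitted singly, and 0 of 24 enzymes were called with copies summed, where 16 of the 33 stood alone. Of the single-gene log2 changes under these 15 settings, 465 had the sign reported and 13, in 8 genes, had the other sign, and the cause was not tested. With quantile normalization these were GAPA1 (0.00219), GAPB (0.0375) and pdTPI (-0.0192). With each library rescaled to the median of the genes outside the 33, they were RBCS1B (-0.00477) and pdTPI (-0.0176). With 1 library left out, RBCS1B ranged from -0.0659 to 0.142, PGK1 from -0.0837 to 0.000378, pdTPI from -0.0342 to 0.0846, RPE from -0.125 to 0.0735, PGLP1A from -0.0497 to 0.209 and GLDH1 from -0.0386 to 0.0275. Without a change of sign, quantile normalization moved the log2 change by over 1.5 times in 12 of the 33, the median rescaling in 8 and the rescaling without photosynthesis genes in 7.

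The number of the 33 that were lower without overlap, 26 as reported, was 22 with quantile normalization (24% of all genes), 27 with the median rescaling (25.2%), 27 with a rescaling that left out photosynthesis genes (21.3%) and 20 of 24 enzymes with copies summed (17.5%). It was 26 to 30 with 1 library left out (25.4% to 38.3%). These alternatives for that count were added after the data were seen. The number with a higher mean, 4 as reported, was 2 with the median rescaling and 1 with copies summed.

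Scaling moved the size of the difference, and the shift of all genes stayed under 0.1. In the order quantile normalization, median rescaling and rescaling without photosynthesis genes, the median log2 change of the 33 genes was -0.0778, -0.186 and -0.168, that of the Calvin cycle genes -0.0680, -0.139 and -0.120, that of the other Calvin cycle genes -0.00859, -0.0125 and 0.00558, and the ratio of the summed level 0.975, 0.908 and 0.919. With copies summed, the Calvin cycle median was -0.115. The photorespiration genes had -0.128 with quantile normalization and -0.210 with the median rescaling, the cytosolic counterparts 0.0214 and 0.0247, and all genes tested -0.00467 and -0.0114. The other photorespiration genes had -0.0561 and -0.0375 under the 2 rescalings.

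With 1 library left out, medians ranged from -0.160 to -0.121 for the 33 genes, from -0.125 to -0.0967 for the Calvin cycle genes, from -0.194 to -0.142 for the photorespiration genes, from 0.0314 to 0.0653 for the other Calvin cycle genes, from -0.0132 to 0.0285 for the other photorespiration genes, from 0.0412 to 0.113 for the cytosolic counterparts, from -0.177 to -0.0374 for the light-harvesting genes and from 0.00174 to 0.0583 for all genes tested. That of the root markers ranged from -0.449 to 0.0117.

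Over all genes, 8 were called higher as reported, against 5 with a pseudocount of 0.01, 5 with the median rescaling, 4 with no filter, 3 with no trend, 29 in a robust fit and 0 to 10 with 1 library left out. The 7 called lower became 3 when the pseudocount was 0.01, 4 at a minimum mean of 5 TPM, 14 in a robust fit and 0 to 7 with 1 library left out. Leaving out Col-0 replicate 2 left limma with 0 calls, where 1243 genes had an unadjusted p under 0.05. It also left 1 of the 33 at that p, against 15 as reported. The replicate block gave 18 calls over all genes and 0 among the 33, but same-numbered libraries did not deviate together (r = 0.0162 across genes), so the pairing is by number alone. The planned comparisons of promoter motifs and protein sequences were not run. Counting error cannot be judged from TPM.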
